A study of Rattus norvegicus with 24 samples.

Results

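The comparison described here set Pfkfb3 knockout (KO) cells against wild-type (WT) cells kept in fructose at normal oxygen. Its members are the 6 libraries, of 24 in the series, whose labels give normoxia and fructose. They are 3 KO and 3 WT libraries, and 14770 of the 34523 genes in the count table were expressed enough to be tested. The cells were a rat line labelled as pulmonary microvascular endothelial cells (PMVECs), which line the smallest vessels of the lung, and the assay was RNA-seq of total RNA. KO cells in fructose and WT cells in fructose were each kept for 24 h in medium with 25 mM fructose under normoxia. KO and WT cells in normoxia with 25 mM glucose, and KO and WT cells in hypoxia with 25 mM fructose, each with 3 libraries and the same 24 h, served to show where the fructose result differed. Not stated in the labels are the altered stretch of Pfkfb3, the number of KO clones, the oxygen levels, and whether medium with fructose also held glucose. They number the libraries of a group but do not call them separate cultures. The p-values here therefore reflect only the spread among libraries within groups, pooled over the 24 of the series, and that spread may be technical.

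Pfkfb3 encodes an enzyme that makes, and to a lesser extent breaks down, fructose 2,6-bisphosphate, the strongest allosteric activator of phosphofructokinase and so of glycolysis. Endothelial cells draw much of their energy from glycolysis, and Pfkfb3 is its best-known accelerator in sprouting vessels. Fructose enters cells mainly through the transporter Slc2a5 and can bypass the phosphofructokinase step when ketohexokinase phosphorylates it, or join glycolysis above that step through hexokinase.

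The KO libraries held 16468992, 16063771 and 19224875 counts and the WT libraries 17782220, 18471139 and 16422331. WT library 3 stood apart: its counts differed from those of the other WT libraries with a chi-square per gene of 22.7 and 26.5, while all other pairs within a genotype lay between 6.55 and 11. Its mitochondrially encoded genes took 3.25% of the counts, against 2.40%, 2.17% and 2.09% in KO and 1.83% and 2.41% in the other WT libraries. Counts of gene lists are therefore also given without this library where they changed. CPM below is the count of a gene per 1000000 counts of its library, values of 3 libraries follow the order of their replicate numbers, and ± after a log2 fold change is its standard error. In bulk RNA, fewer cells of a kind and less RNA per cell cannot be told apart.

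Transcripts of the targeted gene were lower but present. Pfkfb3 was at 39.1, 31.9 and 34.9 CPM in KO, against 126, 113 and 108 CPM in WT (log2 fold change -1.77 ± 0.092, adjusted p = 8.28e-14, KO over WT). The libraries did not overlap. In glucose the gap was smaller, with 39.5 ± 3.09 CPM in KO, against 60.3 ± 5.41 CPM in WT (SD, n = 3 each), and the difference between the sugars passed the test (-1.18 ± 0.13, adjusted p = 5.29e-07). A count over the whole gene does not check a deletion within it.

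Expression differed between the genotypes over much of the transcriptome. Of the genes tested, 7919 (53.6%) passed an adjusted p of 0.05 in edgeR's quasi-likelihood test, 3789 (25.7%) higher and 4130 (28.0%) lower in KO. Without a model, the 3 KO libraries all lay above the 3 WT libraries for 4723 genes (32.0%) and all below for 4105 (27.8%), 59.8% in all. The median log2 fold change of all genes tested was -0.03. Large falls outnumbered large rises: 1515 genes (10.3%) fell and 1020 (6.91%) rose by more than 1 on the log2 scale. A further asymmetry lay at the floor of detection, where 172 genes had no count in any KO library and 43 had none in any WT library. The plot of all genes tested shows this tail.

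**Figure D1:**
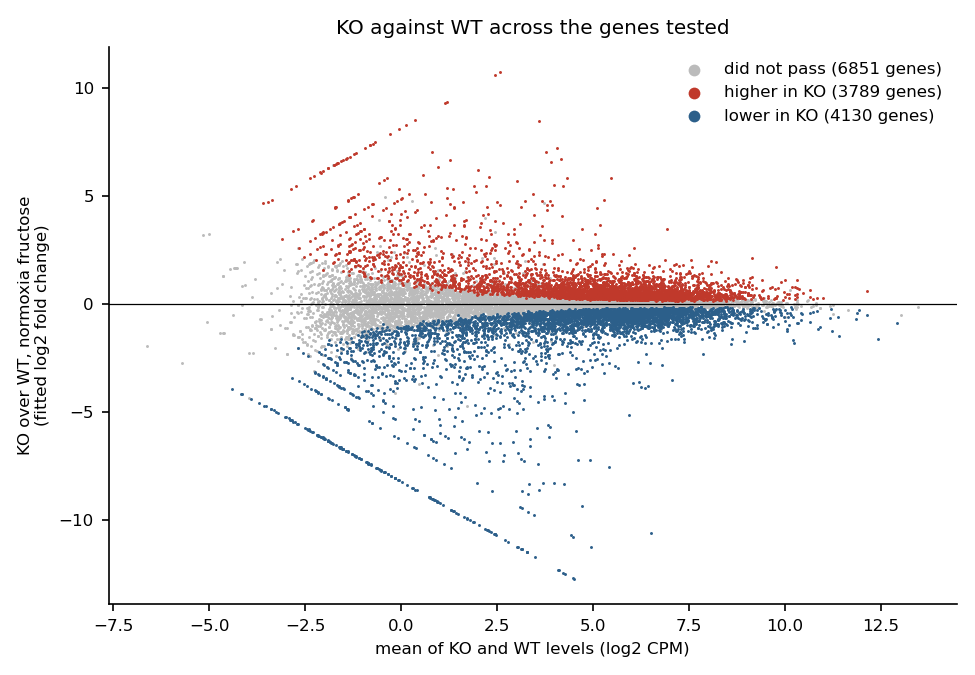
Fitted log2 fold change of KO over WT in normoxia with fructose (y axis) against the mean level in log2 CPM (x axis), 1 point a gene. The 3789 genes higher in KO are red, the 4130 lower in KO are blue and the others grey; the lower tail reaches farther from 0 than the upper, and the straight diagonal edges are genes with no count in KO or in WT, whose fitted value is no bound.

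The genes with the largest fold differences had no or almost no counts in either KO or WT. Sirpa, a receptor that binds CD47, had no count in the 3 KO libraries, against 44.8, 44.1 and 46.9 CPM in WT, which put it at least 780.2-fold lower in KO when the KO group is set to a floor of 3 counts. Uchl1, a ubiquitin hydrolase best known in neurons, had no KO count either, against 49.4, 49.5 and 34.8 CPM in WT (at least 775-fold lower). Pcdh15, a cadherin of the inner ear's tip links, stood at 0 in KO, against 38.7, 44.2 and 32.9 CPM in WT (at least 669-fold lower). Mga, a MAX-binding transcription factor, the nucleotide hydrolase Enpp4 and the actin-associated Pdlim4 were at 0 in KO as well and at least 599, 637 and 581-fold lower. The other genes that the ranking gave on this side were Cd109, Klhl29, Lgr4, Adgrl2, Tnfrsf21 and Ntpcr, with bounds between 304 and 386-fold lower. All 12 were at or near 0 in KO with glucose too.

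In the other direction, Alpk2, a kinase of the alpha family, was at 4.98, 4.73 and 3.95 CPM in KO and had no count in WT (at least 79.4-fold higher). Acsbg1, which activates long fatty acids, was likewise at 4.49, 4.67 and 4.01 CPM in KO and at 0 in WT (at least 76.7-fold higher). Fam167b was at 26.2, 21.3 and 24.1 CPM in KO, against 0, 0 and 0.183 CPM in WT, a ratio of 419.6 (95% counting interval 143 to 2038); bounds and intervals of this kind cover counting error only. Apobr, a receptor for apolipoprotein B48 in macrophages, and Cln3, a lysosomal membrane protein, rose together with fitted log2 fold changes of 7.21 and 6.21 (adjusted p = 6.4e-17 and adjusted p = 2.82e-11). They are neighbours on chromosome 1, and whether reads of either were counted for the other was not tested. Magec2, a gene of the testis-restricted MAGE family, rose to 34.2, 31.7 and 41.2 CPM in KO, against 0.112, 0.758 and 0.0609 CPM in WT. Fam3b, Rnf17, Tdrd9 and Eps8l2 were between 5.85 and 7.04 higher on the log2 scale. Rnf17 and Tdrd9 belong to the germ-line piRNA machinery.

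Of all genes, Col1a1 and Eef2 lost the most CPM. Col1a1, the alpha-1 chain of type I collagen, was at 2634, 2781 and 2879 CPM in KO, against 7984, 7251 and 9104 CPM in WT (log2 fold change -1.61 ± 0.09, adjusted p = 3.31e-13). Eef2, the elongation factor that moves the ribosome along the message, was at 5365, 5763 and 5527 CPM in KO, against 10380.0, 9774 and 9109 CPM in WT (log2 fold change -0.87 ± 0.074, adjusted p = 5.37e-10). Neither gene's libraries overlapped between genotypes. Pabpc1, which binds poly(A) tails, and Rplp0, a ribosomal stalk protein, were also lower, at -0.51 and -0.70 on the log2 scale (adjusted p = 1.16e-05 and adjusted p = 1.34e-07). The largest gains in CPM were those of Scd2, a fatty acid desaturase, the intermediate filament gene Krt8, and Spcs3, a subunit of the signal peptidase. Scd2 stood at 5424, 5244 and 5665 CPM in KO, against 3322, 3165 and 3882 CPM in WT (log2 fold change 0.60 ± 0.086, adjusted p = 2.63e-06). Spcs3 reached 1347, 1303 and 1376 CPM in KO, against 379.7, 472 and 337 CPM in WT (log2 fold change 1.70 ± 0.097, adjusted p = 4.89e-13), with no overlap. Got2, the mitochondrial aspartate transaminase, the tubulins Tuba1b and Tubb5 and the myosin light chain Myl12a gained 1.01, 0.63, 0.80 and 1.10 on the log2 scale. Tubulins, ribosomal proteins and keratins have near-identical copies in the genome, so their counts are uncertain.

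Of 16 tested genes for hexose transport and fructose or polyol metabolism, 4 rose and 4 fell, near the 25.7% and 28.0% of all genes, so that the count says nothing particular about the list and single members are given. Slc2a5, the main fructose transporter, was at 36.6, 34.8 and 32 CPM in KO, against 2.59, 1.84 and 1.34 CPM in WT (log2 fold change 4.09 ± 0.24, adjusted p = 1.28e-12), and Slc2a8, an intracellular hexose transporter, at 2.31, 2.49 and 3.49 CPM in KO, against 7.09, 6.33 and 9.32 CPM in WT (log2 fold change -1.51 ± 0.23, adjusted p = 6.47e-06). Khk, the ketohexokinase gene, was under 1 CPM in all 6 libraries, at 0.911, 0.311 and 0.728 CPM in KO, against 0.9, 0.217 and 0.67 CPM in WT, and did not pass (adjusted p = 0.925). Tkfc, which phosphorylates the triose made from fructose 1-phosphate, rose (log2 fold change 0.83 ± 0.09, adjusted p = 3.22e-08), by 0.80 ± 0.13, adjusted p = 5.92e-05 more than in glucose. Both hexokinases measured well fell: Hk1 to 53.9, 56.5 and 55.7 CPM in KO, against 119, 105 and 94.4 CPM in WT, and Hk2 to 108, 114 and 90.9 CPM in KO, against 181, 170.1 and 149 CPM in WT (log2 fold change -0.74 ± 0.10, adjusted p = 1.12e-06). Hk2 had the opposite sign in glucose, at 0.47, and the difference between the sugars was -1.21 ± 0.14, adjusted p = 1.75e-06.

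Glycolysis genes did not move as a block, with 9 of 21 higher and 7 lower, against 25.7% and 28.0% of all genes. Their median log2 fold change was 0.20. With WT library 3 left out, 6 were higher and 7 lower. Ldhb, the lactate dehydrogenase subunit that favours lactate oxidation, was close to 0 in KO, at 0.243, 0.249 and 0.312 CPM, against 18.7, 15.9 and 26.1 CPM in WT (log2 fold change -6.25 ± 0.36, adjusted p = 4.98e-13). Ldha, the subunit that favours lactate production, was at 798, 804 and 869 CPM in KO, against 526, 531 and 495 CPM in WT (log2 fold change 0.61 ± 0.094, adjusted p = 6.16e-06), and Ldhd, which oxidizes D-lactate, at 16.2, 17.9 and 17.2 CPM in KO, against 5.06, 5.03 and 5.42 CPM in WT. For these 3 genes the libraries of the genotypes did not overlap. Among the enzymes next to the one targeted, the liver-type phosphofructokinase Pfkl rose (log2 fold change 0.83 ± 0.12, adjusted p = 5.11e-06), the platelet-type Pfkp fell (log2 fold change -0.36 ± 0.077, adjusted p = 0.000364), and Fbp2, the muscle fructose bisphosphatase, rose at a low level (log2 fold change 2.42 ± 0.41, adjusted p = 2.53e-05). Of 35 genes for pyruvate entry and the citric acid cycle, 15 were higher and 12 lower (median 0.07), against the same shares of all genes. Pdp2, a phosphatase that switches on pyruvate dehydrogenase, was at 97.8, 105 and 94.4 CPM in KO, against 40.0, 39 and 37.4 CPM in WT (log2 fold change 1.29 ± 0.089, adjusted p = 1.44e-11), and the pyruvate carrier subunit Mpc1 gained 0.63 (adjusted p = 2.2e-08). Of the kinases that oppose Pdp2, Pdk3 rose by 0.86 and Pdk1 fell by 0.96. The carrier subunit Mpc2 and the dehydrogenase component Pdhx fell by 0.24 and 0.45. In the pentose phosphate list 3 of 10 rose and 2 fell, also near the 25.7% and 28.0% of all genes, with transketolase (Tkt) at 0.48 and transaldolase (Taldo1) at -0.64. In the glycogen list 4 of 16 rose, or 2 without KO library 3, and 7 fell, against the same 25.7% and 28.0% of all genes. The 16 include Pygl, which had no count in KO or WT here. Gys1, glycogen synthase, was 0.57 higher. Ppp1r3c, which brings a phosphatase to glycogen, was at 0.0607, 0.0623 and 0.052 CPM in KO, against 2.19, 2.87 and 2.44 CPM in WT, with a WT-over-KO ratio of 43.2 (95% counting interval 14.5 to 212).

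The plot of 12 genes shows the levels behind the next comparisons. The knockout difference depended on the sugar for 2827 genes (19.1%), taken as KO over WT in fructose less KO over WT in glucose: it was more positive in fructose for 1351 (9.15%) and more negative for 1476 (9.99%). Fructose against glucose called 265 genes (1.79%) in KO, 169 higher and 96 lower in fructose, and 5596 (37.9%) in WT, 2946 higher and 2650 lower. KO over WT passed in 6850 genes (46.4%) in glucose, 3355 higher and 3495 lower. Of these, 4897 also passed in fructose (71.5% of the calls in glucose and 61.8% of those in fructose), 4577 with the same sign and 320 with the opposite one. All 320 also passed the test of the difference between the sugars.

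**Figure D2:**
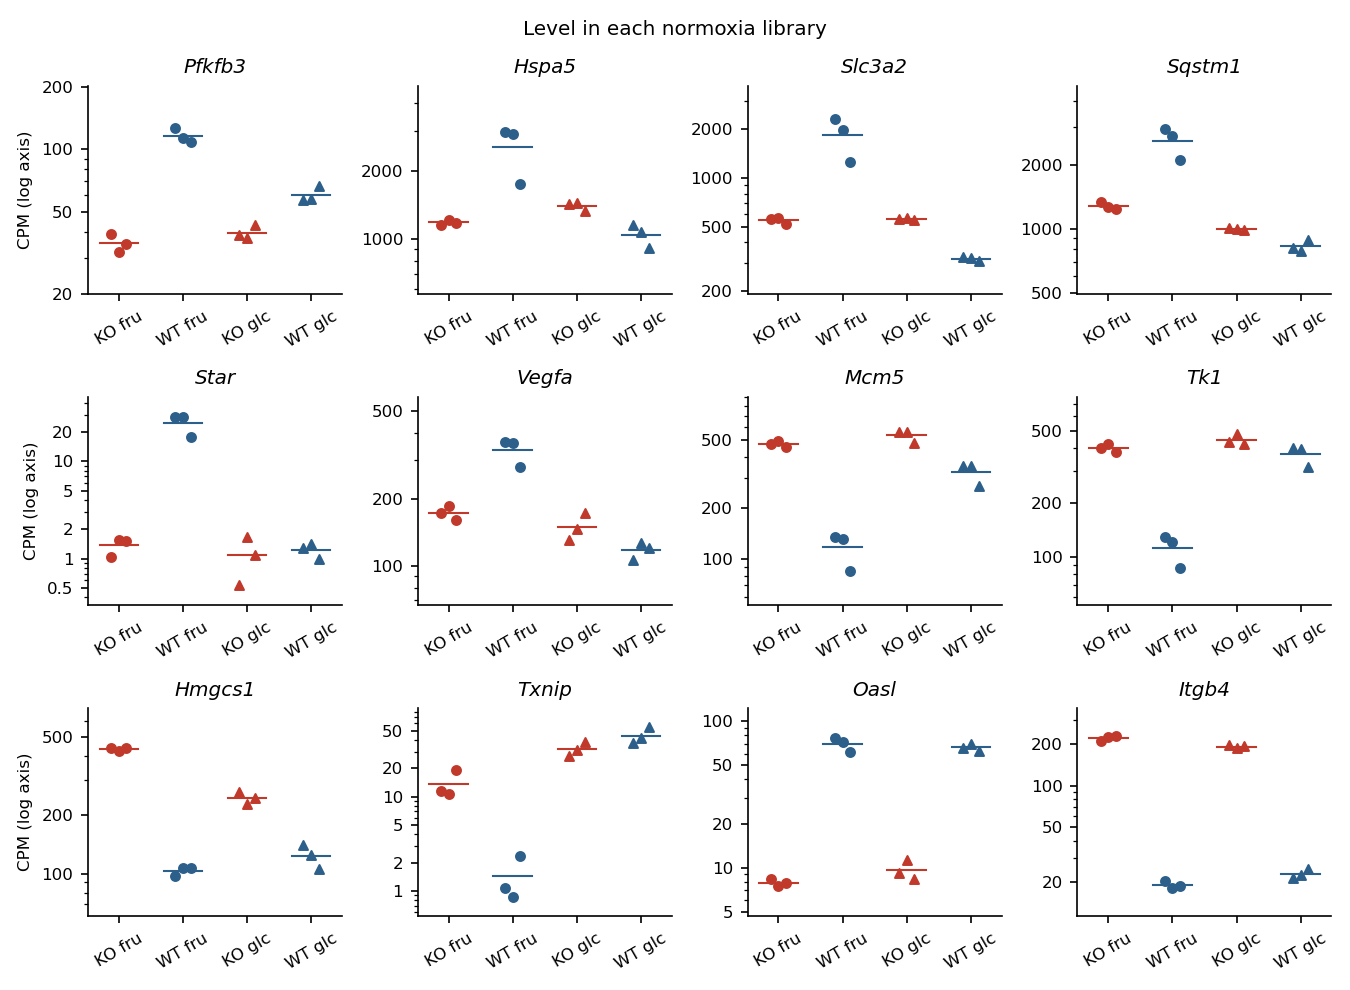
CPM on a log axis of 12 genes in each of the 12 normoxia libraries, with a bar at the mean of each group of 3; fru is fructose and glc is glucose. For Hspa5, Slc3a2, Sqstm1, Star and Vegfa the WT fructose libraries stand above the other 3 groups, and for Mcm5 and Tk1 they stand below them.

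Genes of DNA replication were higher in KO almost throughout. Of 34 tested, 31 rose and none fell, against 25.7% and 28.0% of all genes, with a median log2 fold change of 1.21, and in all 34 the KO libraries lay above the WT libraries (32.0% of all genes). Mcm5, a subunit of the replicative helicase, was at 477, 494 and 454 CPM in KO, against 135, 132 and 85.6 CPM in WT (log2 fold change 1.95 ± 0.18, adjusted p = 3.57e-08), and the third WT library was the lowest. Orc6, of the complex that marks origins, was at 62.1, 74.1 and 60.9 CPM in KO, against 13, 15 and 9.19 CPM in WT (log2 fold change 2.34 ± 0.18, adjusted p = 4.4e-10). Tk1, the thymidine kinase of S phase, was at 401, 419.5 and 379.8 CPM in KO, against 129, 120.3 and 86.3 CPM in WT (log2 fold change 1.77 ± 0.18, adjusted p = 1.34e-07). Tyms, which makes thymidylate, gained 1.32, and Rrm1, the large subunit of ribonucleotide reductase, gained 1.36. The 3 that did not pass were Mcm6 (log2 fold change 0.30 ± 0.16, adjusted p = 0.123), Pole (0.15) and Rfc5 (0.27). With the replicate number added to the fit as a block, Mcm6 and Rfc5 passed as higher.

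In glucose the list's median was 0.17, and the sugar difference was positive and passed in 32 of 34 genes, against 9.15% of all genes. Mcm5 in glucose was at 537 ± 44.8 CPM in KO, against 325 ± 47.6 CPM in WT, and Tk1 at 446 ± 30.8 CPM in KO, against 369.8 ± 47.7 CPM in WT (SD, n = 3 each), so that the levels that stood apart were those of WT cells in fructose. Without WT library 3, 29 of the 34 rose and 30 had a positive sugar difference that passed. Mitosis genes followed the same course: all 27 tested rose (median 0.89, against -0.03 in glucose), and all 27 had a positive sugar difference that passed, against 25.7% and 9.15% of all genes. These counts were 26 and 27 without WT library 3. Ndc80, of the outer kinetochore, was at 161, 168 and 159 CPM in KO, against 43, 52.9 and 41.3 CPM in WT (log2 fold change 1.77 ± 0.092, adjusted p = 8.08e-14). Kif23, a motor of cytokinesis, and Plk1, a mitotic kinase, gained 1.26 and 1.24, with sugar differences of 1.28 and 1.20.

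Regulators of the G1 phase were mixed. Of 21, 14 rose and 2 fell (median 0.50), against 25.7% and 28.0% of all genes. In 12 the sugar difference passed as positive and in 1 as negative, against 9.15% and 9.99% of all genes. The cyclin E genes Ccne1 and Ccne2, which drive entry into S phase, rose (log2 fold change 1.25 ± 0.22, adjusted p = 4.3e-05, and log2 fold change 1.32 ± 0.13, adjusted p = 3.88e-09), as did E2f2 and E2f7, transcription factors of this phase, by 1.35 and 1.18. Cdkn1a, the p21 inhibitor of cyclin-dependent kinases, was at 25.6, 28.1 and 24.8 CPM in KO, against 18.7, 15 and 16.9 CPM in WT (log2 fold change 0.58 ± 0.12, adjusted p = 0.000383), and Cdkn1b, the p27 inhibitor, fell by 0.39. The gene with the negative sugar difference was Myc, at 55.5, 73.5 and 45.7 CPM in KO, against 51.2, 47.4 and 32.6 CPM in WT, with libraries that overlapped (log2 fold change 0.35 ± 0.20, adjusted p = 0.156), while in glucose it stood at 50.1 ± 6.66 CPM in KO, against 15.2 ± 4.23 CPM in WT (-1.38 ± 0.29, adjusted p = 0.00224). Myc passed as higher in fructose when the replicate number was added to the fit as a block.

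Promoters of the DNA replication list are shown because its members moved together. They come from RefSeq on the GRCr8 build and span 250 bases before to 50 after the start of the gene, 5′ to 3′ on its strand. Capitals mark matches to E2F motifs, TTTGGCGC or TTTCCCGC, on either strand. TTTGGCGC was present in 7 of 29 promoters of the list found in the table (24.1%), against 0.521% of all 27457 promoters, and TTTCCCGC in 4 of 29 (13.8%), against 1.03% of all. A match is a description of letters, not a binding site. The Mcm5 promoter lies at chr19:13488563-13488862, plus strand, and the Tyms promoter at chr9:120776034-120776333, minus strand.
Mcm5: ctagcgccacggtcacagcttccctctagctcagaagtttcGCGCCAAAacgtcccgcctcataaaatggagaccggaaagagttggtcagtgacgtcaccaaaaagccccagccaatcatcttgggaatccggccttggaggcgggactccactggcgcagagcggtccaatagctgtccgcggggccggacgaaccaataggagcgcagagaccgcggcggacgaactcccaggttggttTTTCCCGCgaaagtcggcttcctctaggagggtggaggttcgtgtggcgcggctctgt
Tyms: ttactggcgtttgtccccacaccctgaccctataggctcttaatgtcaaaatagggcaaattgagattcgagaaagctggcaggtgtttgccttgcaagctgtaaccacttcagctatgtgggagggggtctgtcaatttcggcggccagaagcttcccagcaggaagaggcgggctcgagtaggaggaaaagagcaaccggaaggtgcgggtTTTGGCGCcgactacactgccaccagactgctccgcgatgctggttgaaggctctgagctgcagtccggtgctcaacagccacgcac

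Chaperones of the endoplasmic reticulum (ER), which fold secreted and membrane proteins, were lower in KO. Of 20 chaperones and disulfide enzymes, 16 fell and 2 rose (median -0.68), against 28.0% and 25.7% of all genes. Hspa5, the main ER chaperone (BiP), was at 1157, 1217 and 1177 CPM in KO, against 2976, 2904 and 1749.9 CPM in WT (log2 fold change -1.17 ± 0.16, adjusted p = 2.56e-06). The third WT library was lower than the other WT libraries and still above all KO libraries. Hsp90b1 (GRP94) was at 1368, 1506 and 1472 CPM in KO, against 4114, 4424 and 3221 CPM in WT (log2 fold change -1.50 ± 0.10, adjusted p = 7.17e-12). Hyou1, Sdf2l1, P4hb and Calr fell by 1.11, 1.33, 1.24 and 0.63 on the log2 scale, and Dnajb9 and the disulfide isomerase Txndc5 were the 2 that rose (0.59 and 0.68). The median in glucose was 0.34, and the sugar difference was negative and passed in 17 of 20 genes, against 9.99% of all genes. Hspa5 in glucose was at 1401 ± 64.2 CPM in KO, against 1042 ± 122 CPM in WT (sugar difference -1.61 ± 0.22, adjusted p = 2.6e-05). Without WT library 3, 16 still fell and 18 had a negative sugar difference.

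Sensors of ER stress and genes that clear misfolded ER proteins fell in 8 of 18 cases and rose in 4, against 28.0% and 25.7% of all genes. They had 10 negative sugar differences and no positive one, against 9.99% and 9.15% of all genes. Atf6, a sensor that is cut to become a transcription factor, was at 194, 204 and 194 CPM in KO, against 396, 396 and 301 CPM in WT (log2 fold change -0.95 ± 0.11, adjusted p = 1.25e-07), and Sel1l and Os9, of the degradation complex, fell by 0.81 and 1.04. Herpud1, a partner of that complex, went the other way, at 442, 475 and 475 CPM in KO, against 259, 276 and 208 CPM in WT (log2 fold change 0.84 ± 0.098, adjusted p = 1.01e-07), but by less than in glucose, where its fold change was 1.79. Xbp1 was at 98.6, 116 and 116 CPM in KO, against 105, 121 and 93.5 CPM in WT, with overlap, and did not pass (adjusted p = 0.915).

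Targets of ATF4 and CHOP, the transcription factors of the amino acid and stress response, fell in 9 of 18 cases and rose in 2 (median -0.31, against 0.78 in glucose). Of all genes 28.0% fell and 25.7% rose. A negative sugar difference passed in 12 of the 18, against 9.99% of all genes. Slc3a2, a chain shared by several amino acid exchangers, was at 561, 562 and 519 CPM in KO, against 2305, 1972 and 1259 CPM in WT (log2 fold change -1.82 ± 0.16, adjusted p = 7.32e-09), and its sugar difference was -2.64 ± 0.23, adjusted p = 8.31e-08. Its partner for cystine import, Slc7a11, fell by 1.01, and Ddit3, which encodes CHOP, was at 88.2, 81.1 and 84.8 CPM in KO, against 187, 172 and 133 CPM in WT (log2 fold change -1.02 ± 0.13, adjusted p = 7.91e-07). Fgf21, a stress hormone, was at 6.74, 5.54 and 8.74 CPM in KO, against 17.4, 17.6 and 14.5 CPM in WT (log2 fold change -1.30 ± 0.27, adjusted p = 0.000307). Atf4 itself did not pass (log2 fold change 0.09 ± 0.11, adjusted p = 0.493), with overlapping libraries. Nupr1, the stress gene with the largest fold on this list, was at 5.89, 7.35 and 210.4 CPM in KO, against 3.37, 1.57 and 2.74 CPM in WT in replicate order, so that KO library 3 set the size of its fitted fold change, 4.80, which was 1.31 without that library. With the 6 libraries alone it did not pass (adjusted p = 0.122). Without WT library 3, 11 members fell and 14 had a negative sugar difference.

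The ER stress element, CCAAT and CCACG with any 9 bases between them, searched on both strands, was in 7 of 16 promoters of the chaperone list (43.8%), in 2 of 14 of the list of sensors and degradation genes (14.3%), and in 0.0765% of all promoters. The promoters of Hspa5 and Hsp90b1 are shown for this list, with the element in capitals, at chr3:38452766-38453065, plus strand, and chr7:23012244-23012543, minus strand (GRCr8, RefSeq). Hsp90b1 holds 2 matches, 1 on each strand. The ATF4 element TGATGCAA was in 3 of 18 promoters of the ATF4 list (16.7%), against 0.743% of all.
Hspa5: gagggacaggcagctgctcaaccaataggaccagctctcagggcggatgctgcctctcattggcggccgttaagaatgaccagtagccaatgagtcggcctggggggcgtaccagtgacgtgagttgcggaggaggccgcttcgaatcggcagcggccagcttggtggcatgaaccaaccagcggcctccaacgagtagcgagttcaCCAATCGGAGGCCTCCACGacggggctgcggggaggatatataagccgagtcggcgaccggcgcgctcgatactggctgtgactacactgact
Hsp90b1: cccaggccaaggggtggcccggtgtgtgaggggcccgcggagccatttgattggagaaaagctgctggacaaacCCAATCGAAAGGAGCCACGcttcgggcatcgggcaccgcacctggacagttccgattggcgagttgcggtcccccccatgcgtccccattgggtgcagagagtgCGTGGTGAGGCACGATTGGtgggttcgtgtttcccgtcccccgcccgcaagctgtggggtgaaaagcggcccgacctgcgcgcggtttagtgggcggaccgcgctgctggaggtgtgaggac

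Lysosome and autophagy genes were lower in KO, with 17 of 28 lower and 5 higher (median -0.46, against 0.10 in glucose). Of all genes 28.0% were lower and 25.7% higher. Lamp1, the most used lysosomal membrane marker, was at 559, 554 and 626 CPM in KO, against 1730.5, 1667 and 1922 CPM in WT (log2 fold change -1.67 ± 0.078, adjusted p = 1.34e-14). Mcoln1, the calcium channel TRPML1, was at 49.4, 49.8 and 46.4 CPM in KO, against 177, 164 and 146 CPM in WT (log2 fold change -1.80 ± 0.072, adjusted p = 8.18e-16), and Sqstm1, the autophagy receptor p62, at 1339, 1266 and 1239 CPM in KO, against 2938, 2720.1 and 2118 CPM in WT (log2 fold change -1.08 ± 0.097, adjusted p = 1.33e-09). None of these overlapped. The glucosidase Gaa, the protease Ctsa, the sialidase Neu1 and the cholesterol exporter Npc1 fell by 1.72, 1.63, 1.25 and 0.76. The sugar difference was negative and passed in 18 of the 28, against 9.99% of all genes. It was -1.41 ± 0.11, adjusted p = 4.75e-09 for Npc1 and -1.48 ± 0.15, adjusted p = 1.25e-07 for Neu1, which had fold changes of 0.64 and 0.24 in glucose. The negative sugar differences numbered 13 without WT library 3. Members higher numbered 3 without KO library 1 or WT library 3. Wipi1, an early autophagosome protein, and Mitf, a transcription factor related to Tfeb, rose by 1.37 and 1.23, and Tfeb, the master regulator of lysosomal genes, fell by 0.66.

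Of 29 cytosolic ribosomal protein genes 6 fell in fructose and 1 rose, or none without WT library 3 (median -0.07). Of all genes 28.0% fell and 25.7% rose. Their median in glucose was 0.36, and 20 of 29 had a negative sugar difference that passed, against 9.99% of all genes. Rpl12 and Rpl6 had the largest falls (log2 fold change -1.13 ± 0.095, adjusted p = 5.02e-10, and log2 fold change -0.97 ± 0.10, adjusted p = 1.79e-08). Rps18 was at 799, 704 and 783 CPM in KO, against 774, 786 and 769.9 CPM in WT and did not pass (adjusted p = 0.513), and in glucose it was at 797 ± 56.7 CPM in KO, against 535 ± 18.3 CPM in WT.

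**Figure D3:**
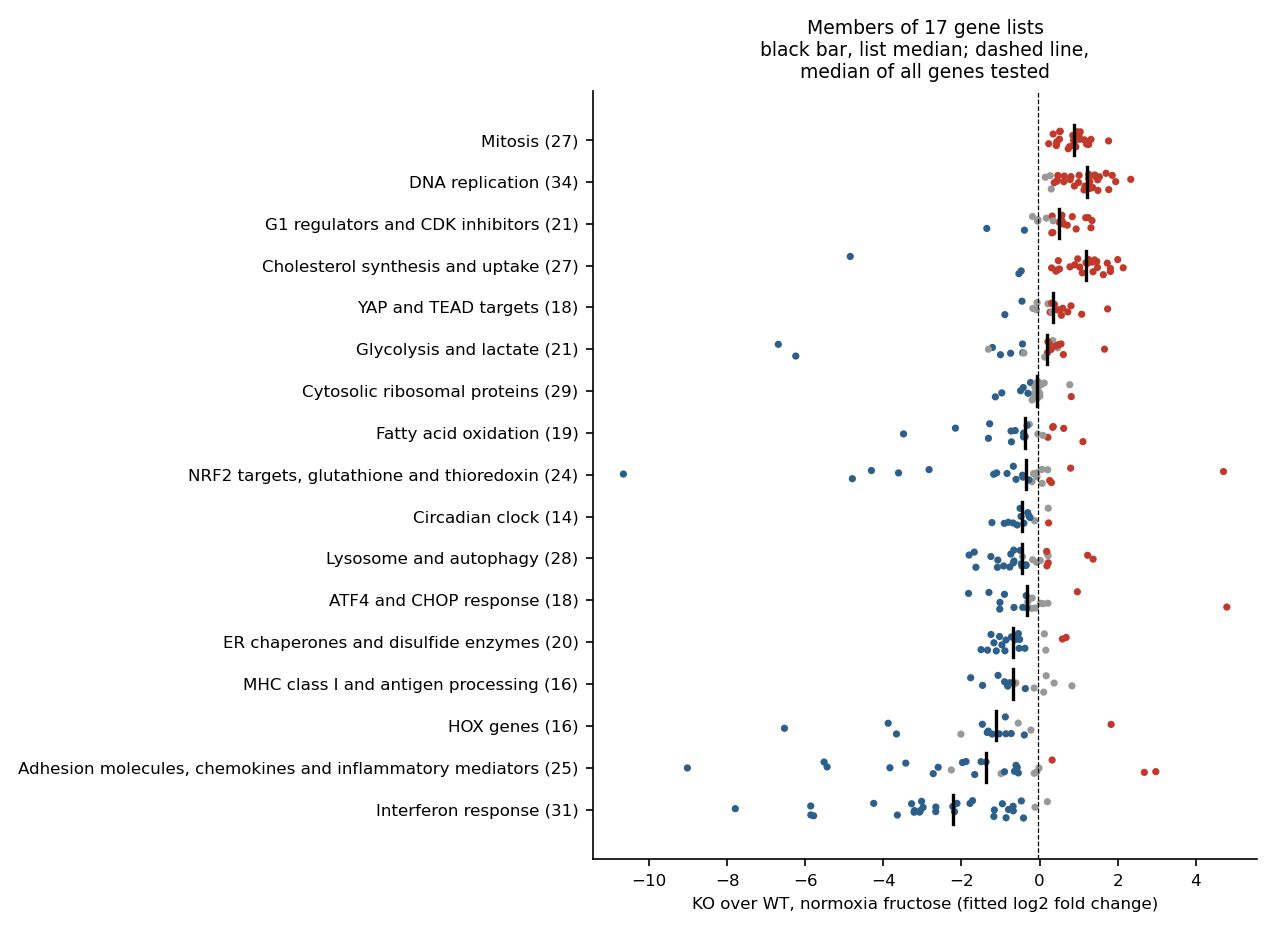
Fitted log2 fold change of KO over WT in normoxia with fructose (x axis) for the tested members of 17 gene lists (number of genes in brackets). Red members passed as higher in KO, blue as lower, grey did not pass; medians run from 1.21 for DNA replication to -2.22 for the interferon response, against -0.03 for all genes.

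Sterol genes were higher in KO with very few exceptions. Of 27 genes of cholesterol synthesis and uptake, 24 rose and 3 fell, and every member passed (median 1.19, against 0.64 in glucose). Of all genes 25.7% rose and 28.0% fell. Hmgcs1, which makes HMG-CoA, was at 436, 423 and 437 CPM in KO, against 96.8, 107 and 107 CPM in WT (log2 fold change 2.0 ± 0.10, adjusted p = 4.12e-14). Msmo1, a sterol demethylase, was at 924, 941 and 901 CPM in KO, against 192, 209 and 199 CPM in WT (log2 fold change 2.14 ± 0.097, adjusted p = 7.44e-15). The libraries of the genotypes did not overlap for any of the 27, against 59.8% of all genes without overlap. The sterol sensor Insig1 rose by 1.25. The 3 that fell were the cholesterol exporter Abca1, at 0.182, 0.0623 and 0 CPM in KO, against 1.52, 1.62 and 3.96 CPM in WT, the SREBP escort Scap (-0.47) and Insig2 (-0.53).

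The sugar difference passed as positive for 14 sterol genes and as negative for 1, against 9.15% and 9.99% of all genes. The negative one was Scap, which was lower in KO in fructose. Hmgcs1 differed by 1.01 ± 0.14, adjusted p = 1.03e-05 between the sugars, Acat2, which joins acetyl-CoA units, by 1.26, and Dhcr7, the last enzyme of the pathway, by 1.06, while Msmo1 differed by 0.17 and did not pass (0.17 ± 0.13, adjusted p = 0.408). The oxygen difference passed as negative for 15 of 27, against 1.04% of all genes, and as positive for no member. Hmgcs1 in hypoxia with fructose had a fold change of 2.98 (oxygen difference -0.98 ± 0.14, adjusted p = 0.000294) and Acat2 one of 2.91 (oxygen difference -1.10 ± 0.21, adjusted p = 0.0089). The 15 became 9, 8 and 9 without KO normoxia library 1, 2 or 3, 9 without KO hypoxia library 1, and 7 and 9 without WT hypoxia library 2 or 3. The sterol element, ATCACC followed at once by CCAC, on either strand, was in none of the 21 promoters of the list found, against 0.102% of all, which says only that these letters are not in that window.

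In the list for synthesis of fatty acids and triglycerides 9 of 21 rose and 6 fell, against 25.7% and 28.0% of all genes. The desaturases rose: Scd1 was at 333, 301 and 357 CPM in KO, against 148, 153 and 177 CPM in WT (log2 fold change 1.0 ± 0.12, adjusted p = 4.88e-07), and Fads2 at 209, 197 and 229.8 CPM in KO, against 104, 97.8 and 123 CPM in WT, where its sugar difference was 1.28 ± 0.14, adjusted p = 3.08e-07. Acly, which makes cytosolic acetyl-CoA from citrate, rose by 0.43, and Gpam, the first step to glycerolipids, by 0.98. Fasn, the fatty acid synthase, and Srebf1, its main activator, fell (log2 fold change -0.47 ± 0.13, adjusted p = 0.00504, and log2 fold change -0.63 ± 0.07, adjusted p = 4.84e-08). In the fatty acid oxidation list 11 of 19 fell and 5 rose (median -0.37). Acadm, the medium-chain dehydrogenase, was at 12.9, 13.2 and 12.2 CPM in KO, against 31.7, 24.7 and 34.6 CPM in WT (log2 fold change -1.31 ± 0.13, adjusted p = 4.26e-09), and Ppard, a lipid-sensing nuclear receptor, rose to 150.4, 164 and 152 CPM in KO, against 70.2, 73.6 and 62.9 CPM in WT.

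**Figure D4:**
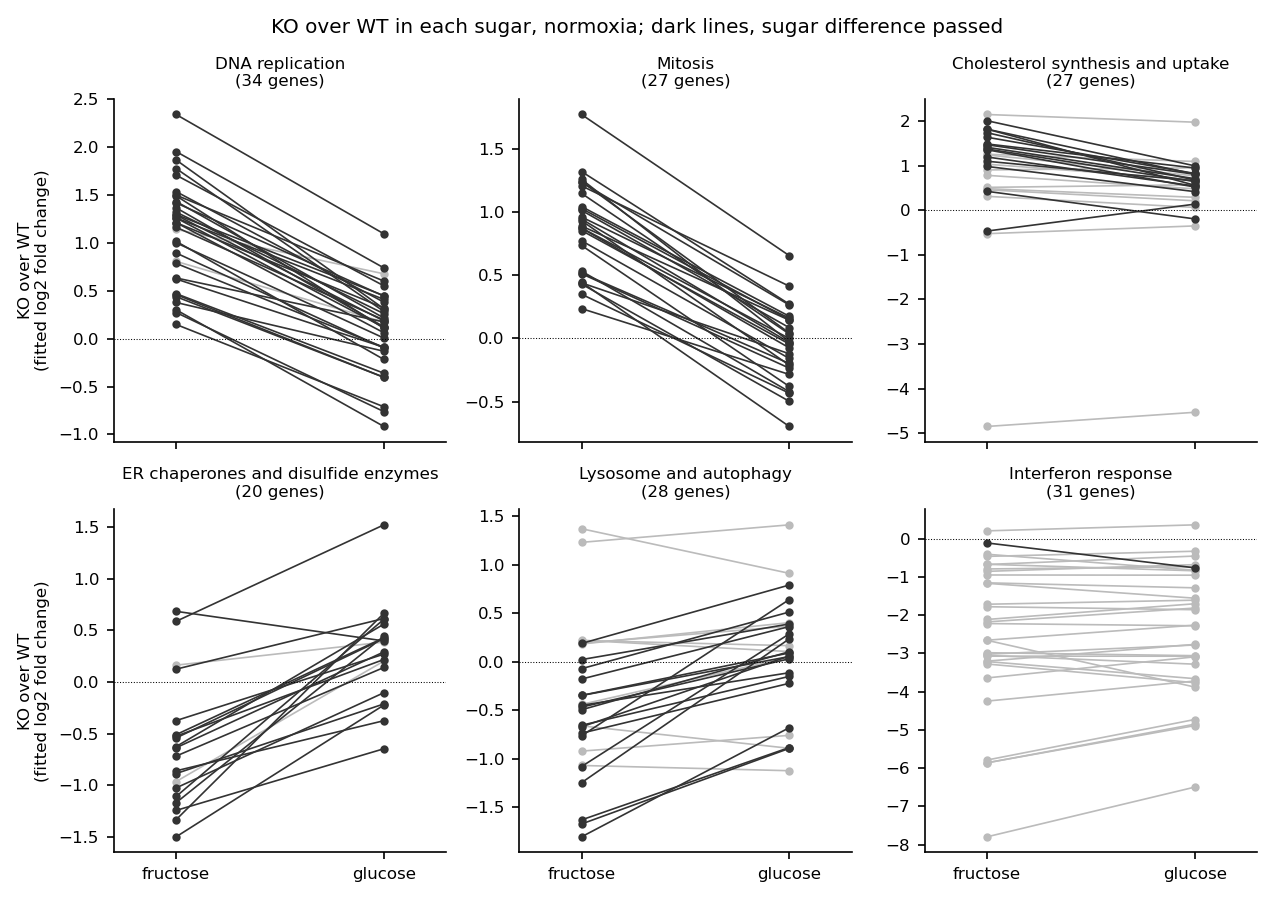
Fitted log2 fold change of KO over WT in fructose (left) and in glucose (right) for members of 6 lists, 1 line a gene; dark lines passed the test of the difference between the sugars. Replication (32 of 34) and mitosis genes (27 of 27) slope down towards glucose, ER chaperones mostly slope up (17 of 20 with a negative sugar difference), and interferon genes are low in both sugars.

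Of the 8 genes with the most negative sugar differences that the ranking gave, 7 had their highest mean level in WT cells in fructose. Star, which carries cholesterol into mitochondria, was at 1.03, 1.56 and 1.51 CPM in KO, against 28.7, 28.3 and 17.6 CPM in WT (log2 fold change -4.24 ± 0.32, adjusted p = 7.24e-11). In glucose it was at 1.1 ± 0.572 CPM in KO, against 1.23 ± 0.219 CPM in WT, a sugar difference of -4.07 ± 0.47, adjusted p = 1.51e-06. Stbd1, which tethers glycogen to membranes, was at 1.94, 0.685 and 1.72 CPM in KO, against 34.1, 33.6 and 23.1 CPM in WT, and in glucose at 1.33 ± 0.48 CPM in KO, against 2.95 ± 0.681 CPM in WT (-3.32 ± 0.52, adjusted p = 0.000112). Slc16a5, a monocarboxylate transporter, was at 7.17, 6.97 and 8.53 CPM in KO, against 49.9, 48.7 and 38.2 CPM in WT, with 5.52 ± 1.83 CPM in KO, against 4.07 ± 0.857 CPM in WT in glucose (-3.11 ± 0.27, adjusted p = 2.59e-08). Cox6a2, a muscle form of a cytochrome oxidase subunit, Tenm4, a teneurin, Creg1, a lysosomal glycoprotein, Nrip2, a nuclear receptor partner, and Itga2, a collagen receptor, followed, with sugar differences between -3.37 and -2.69. Creg1 was high in WT in glucose as well, at 7.68 ± 0.169 CPM. Itga2 was the exception, highest in KO in fructose, at 4.31, 5.48 and 5.25 CPM in KO, against 3.37, 3.68 and 1.46 CPM in WT, and in glucose at 2.36 ± 0.733 CPM in KO, against 0.201 ± 0.0328 CPM in WT.

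At the positive end, Txnip, an arrestin-like protein that limits glucose uptake, was at 11.4, 10.6 and 19.3 CPM in KO, against 1.07, 0.866 and 2.37 CPM in WT (log2 fold change 3.23 ± 0.33, adjusted p = 1.21e-07). In glucose it was at 32.1 ± 5.32 CPM in KO, against 44.6 ± 8.96 CPM in WT, a sugar difference of 3.69 ± 0.41, adjusted p = 4.05e-06. Mylk3, a myosin light chain kinase known from heart, was at 17.9, 18.2 and 13.6 CPM in KO, against 0.9, 0.596 and 0.609 CPM in WT (log2 fold change 4.48 ± 0.20, adjusted p = 4.46e-15), with a fold change of 2.52 in glucose. Prkar2b, a regulatory subunit of protein kinase A, had the largest value but stood at no more than 0.156 CPM in KO in either sugar, so its sugar difference of 4.58 rests on few counts and did not pass without KO library 3. Eln, which encodes elastin, was lower in KO by less in fructose (-1.68) than in glucose (-3.62).

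Interferon-stimulated genes were lower in KO in both sugars. Of 31 tested, 29 fell and none rose (median -2.22, against -2.26 in glucose), whereas 28.0% of all genes fell and 25.7% rose. A single member passed the test of the sugar difference, against 19.1% of all genes. Oasl, an antiviral 2'-5' oligoadenylate synthetase-like protein, was at 8.44, 7.47 and 7.85 CPM in KO, against 76.7, 71.4 and 61.7 CPM in WT (log2 fold change -3.20 ± 0.14, adjusted p = 2.23e-15). Ifi44 was at 0.304, 0.249 and 0.26 CPM in KO, against 9, 12.3 and 25.5 CPM in WT, where the third WT library was the highest (log2 fold change -5.86 ± 0.42, adjusted p = 3.94e-11). Rsad2 (viperin) was at 1.7, 0.685 and 0.78 CPM in KO, against 20.1, 18.5 and 19.2 CPM in WT (log2 fold change -4.25 ± 0.31, adjusted p = 3.58e-11), and Irf7, a transcription factor that drives interferon genes, at 16.9, 15.5 and 17.4 CPM in KO, against 62, 59.2 and 86.5 CPM in WT (log2 fold change -2.11 ± 0.13, adjusted p = 2.66e-12). Mx1 was among the 2 that did not pass (log2 fold change 0.20 ± 0.30, adjusted p = 0.591). Without WT library 3, 27 fell. Of the 31, 6 had a more negative fold change in normoxia than in hypoxia, against 1.04% of all genes. Ifit3 was at 4.92, 4.86 and 5.72 CPM in KO, against 23.8, 24.6 and 18.9 CPM in WT in normoxia, and at 10.3 ± 1.58 CPM in KO, against 14.7 ± 3.61 CPM in WT in hypoxia (oxygen difference -1.55 ± 0.24, adjusted p = 0.00141). The oligoadenylate synthetase genes are close paralogs, so reads could be split between them.

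The interferon-stimulated response element, a pair of GAAA with any 2 bases between, on either strand, was in 15 of 24 promoters of this list (62.5%), against 3.77% of all. The promoters of Rsad2 and Ifit3 are shown with the element in capitals, at chr6:48788071-48788370, minus strand, and chr1:241527076-241527375, plus strand (GRCr8, RefSeq).
Rsad2: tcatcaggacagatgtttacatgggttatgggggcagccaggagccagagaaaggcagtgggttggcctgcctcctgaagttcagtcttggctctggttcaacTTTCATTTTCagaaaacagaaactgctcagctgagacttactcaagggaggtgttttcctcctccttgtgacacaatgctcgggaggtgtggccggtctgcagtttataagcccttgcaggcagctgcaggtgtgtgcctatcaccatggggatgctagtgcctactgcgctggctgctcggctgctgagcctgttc
Ifit3: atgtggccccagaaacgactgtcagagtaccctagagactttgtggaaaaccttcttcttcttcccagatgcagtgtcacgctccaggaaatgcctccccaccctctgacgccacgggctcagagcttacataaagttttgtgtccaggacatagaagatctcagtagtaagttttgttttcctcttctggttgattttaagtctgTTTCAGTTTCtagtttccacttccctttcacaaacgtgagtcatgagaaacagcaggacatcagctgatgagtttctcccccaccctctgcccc

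Of 16 genes of MHC class I and antigen processing, 9 were lower and none higher (median -0.67), against 28.0% and 25.7% of all genes. Among class I heavy chain genes, RT1-M3-1 and RT1-S3 were lower, whereas RT1-A1, RT1-A2, RT1-CE10 and RT1-CE5 did not pass. B2m, the light chain of class I molecules, was at 549.9, 478 and 618 CPM in KO, against 1004, 1052 and 1247 CPM in WT (log2 fold change -1.06 ± 0.081, adjusted p = 8.22e-11), and Tap1, a peptide transporter, fell by 0.82. Of 25 adhesion molecules, chemokines and inflammatory mediators, 17 fell and 3 rose (median -1.37), against the same shares of all genes. Ccl5, a T cell chemokine, was at 2.91, 2.55 and 3.23 CPM in KO, against 28.4, 30.9 and 30.8 CPM in WT (log2 fold change -3.43 ± 0.20, adjusted p = 6.53e-13). Ptgs1, a cyclooxygenase, was at 25.9, 18.5 and 28.3 CPM in KO, against 149, 144 and 169.8 CPM in WT (log2 fold change -2.72 ± 0.16, adjusted p = 6.76e-12), and Ptgs2, the inducible form, had no count in KO, against 3.82, 3.57 and 2.98 CPM in WT (at least 59.9-fold lower). Vcam1, an adhesion molecule for leukocytes, had 1 count over the KO libraries and a WT-over-KO ratio of 59.9 (95% counting interval 10.4 to 2406). Icam1 did not pass (log2 fold change -0.07 ± 0.083, adjusted p = 0.483), and Csf3, the granulocyte growth factor, rose (log2 fold change 2.69 ± 0.30, adjusted p = 6.71e-08).

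Matrix lists had members higher and lower, against 25.7% higher and 28.0% lower of all genes. Of 21 collagen chains 7 rose and 9 fell, of 23 collagen-modifying and matrix genes 4 rose and 11 fell, and of 25 laminins and integrins 9 rose and 13 fell. P4ha2, a collagen prolyl hydroxylase, was at 0.121, 0 and 0.208 CPM in KO, against 180.0, 162 and 207 CPM in WT, and Col4a4, a basement membrane collagen, at 0.425, 0 and 0.884 CPM in KO, against 82.3, 73.1 and 98.7 CPM in WT (log2 fold change -7.55 ± 0.33, adjusted p = 3.86e-13). Both were close to 0 in KO. Col18a1, the collagen that yields endostatin, rose to 225, 222 and 216 CPM in KO, against 92.1, 84.5 and 88 CPM in WT (log2 fold change 1.26 ± 0.095, adjusted p = 6.62e-11). The laminin receptor subunit Itgb4 was at 212, 228 and 230.0 CPM in KO, against 20.5, 18.1 and 18.7 CPM in WT (log2 fold change 3.49 ± 0.085, adjusted p = 4.9e-20), and the collagen receptor subunit Itga11 at 0.972, 0.934 and 1.09 CPM in KO, against 22.4, 23.4 and 21.4 CPM in WT (log2 fold change -4.53 ± 0.30, adjusted p = 1.32e-11). Matrix proteases and their inhibitors had 7 of 16 lower and none higher, with Plat, tissue plasminogen activator, at 174, 133 and 175 CPM in KO, against 351, 384 and 499 CPM in WT (log2 fold change -1.41 ± 0.14, adjusted p = 4.3e-08).

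Of 19 vascular growth factors and receptors 5 rose and 9 fell, against 25.7% and 28.0% of all genes. Vegfa, the main angiogenic factor, was at 174, 186 and 162 CPM in KO, against 362, 359 and 281 CPM in WT (log2 fold change -1.0 ± 0.10, adjusted p = 1.44e-08), and in glucose at 150.1 ± 21.2 CPM in KO, against 118 ± 10.3 CPM in WT, a sugar difference of -1.36 ± 0.15, adjusted p = 4.16e-07. Vegfb fell by 0.90 with a sugar difference of -1.0, and the co-receptor Nrp1 fell by 0.94. In the insulin-like growth factor system 5 of 14 rose and 7 fell: Igfbp5, a binding protein, was at 68.6, 61.1 and 68.2 CPM in KO, against 2.64, 2.82 and 3.35 CPM in WT (log2 fold change 4.43 ± 0.13, adjusted p = 1.35e-18), and the adaptor Irs1 at 1.09, 1.06 and 1.98 CPM in KO, against 19.1, 18.5 and 19.7 CPM in WT (log2 fold change -3.83 ± 0.28, adjusted p = 5.75e-11). The insulin receptor Insr fell by 1.33 and Igf1 rose by 1.37. In the TGF-beta and BMP list 9 of 29 rose and 9 fell, near the shares of all genes, with the ligand Bmp4 at 0.121, 0.0623 and 0.156 CPM in KO, against 18.1, 15.8 and 20.6 CPM in WT (log2 fold change -7.27 ± 0.35, adjusted p = 2.41e-14), and the signal carrier Smad1 higher by 1.44. Notch3, a receptor of mural cells, was at 0, 0 and 0.208 CPM in KO, against 11.1, 8.88 and 17.6 CPM in WT (log2 fold change -7.28 ± 0.65, adjusted p = 1.42e-08). In the Notch list 4 of 12 were higher and 5 lower, against 25.7% and 28.0% of all genes. In the YAP and TEAD list 11 of 18 genes rose and 2 fell, against the same shares of all genes. This list holds pathway members as well as targets, and Yap1, Wwtr1, Tead1 and Lats2 were among those that rose. Of the targets, Ankrd1 was at 237, 263 and 205 CPM in KO, against 75.4, 73.7 and 52.1 CPM in WT (log2 fold change 1.75 ± 0.17, adjusted p = 6.07e-08). Ctgf did not pass (log2 fold change -0.08 ± 0.12, adjusted p = 0.62).

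HOX genes, which keep positional identity, fell in 12 of 16 cases and rose in 1 (median -1.12, against -0.69 in glucose). The counts of this and the next lists stand against 28.0% lower and 25.7% higher of all genes. Hoxd13 was the member that rose (log2 fold change 1.83 ± 0.25, adjusted p = 9.41e-07), Hoxb4 fell (log2 fold change -1.21 ± 0.17, adjusted p = 1.51e-06), and Hoxc4 had no count in KO, against 0.844, 0.217 and 0.792 CPM in WT (at least 10.5-fold lower). Of 14 clock genes 11 fell and 1, Clock itself, rose (log2 fold change 0.23 ± 0.091, adjusted p = 0.0347), a call lost without KO library 2 or 3 or WT library 1 or 3, with a median of -0.44, against 0.06 in glucose. Dbp, an output gene of the clock, was at 11.7, 9.59 and 8.53 CPM in KO, against 19.9, 16 and 31 CPM in WT (log2 fold change -1.22 ± 0.23, adjusted p = 0.000109), and Per1 fell by 0.68. Without WT library 3, 9 clock genes fell and none rose. Among NRF2 targets and glutathione and thioredoxin genes 13 of 24 fell and 4 rose, or 2 without WT library 3. Srxn1, sulfiredoxin, had no count in KO, against 12.8, 11.3 and 8.28 CPM in WT (at least 187-fold lower), and Gsta1, a glutathione transferase, was at 13.2, 10.1 and 11.1 CPM in KO, against 146, 139.6 and 117 CPM in WT (log2 fold change -3.61 ± 0.27, adjusted p = 2.94e-09), a family whose members are near-identical. Catalase (Cat) and glutathione reductase (Gsr) fell by 1.17 and 1.10, and the peroxidase Gpx1 rose by 0.80.

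Markers of cell type were checked against the endothelial label. Of 22 endothelial markers listed, 21 were found in the table and 10 were expressed enough to test. Of these 10, 5 were higher in KO and none lower, against 25.7% and 28.0% of all genes. Vwf, von Willebrand factor, was at 55.5, 60.9 and 66 CPM in KO, against 7.59, 6.39 and 12.1 CPM in WT (log2 fold change 2.76 ± 0.16, adjusted p = 1.04e-12), and Icam2 and Flt1 rose by 2.98 and 1.09. Defining markers were absent or nearly so in both genotypes: Emcn, Esam, Cldn5, Sox17, Sox18, Robo4, Plvap and Clec14a had no count in any of the 6 libraries, and Cdh5, Kdr and Ramp2 stayed under 0.547 CPM. The summed level of the list was 324.6, 361 and 307 CPM in KO, against 142, 141 and 114 CPM in WT. Flt1 held the largest part of that sum, at 175, 211 and 152 CPM in KO, against 89.2, 93 and 58.9 CPM in WT. Pecam1 had no match in the table.

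Markers of other cells were present too. The counts below stand against 25.7% higher and 28.0% lower of all genes. In the epithelial and junction list 10 of 19 rose and 2 fell, or 1 without KO library 1 or 2 or WT library 2 or 3, and its summed level was between 4963 and 5016 CPM in KO, against 3199 and 3328 CPM in WT. Grhl2, an epithelial transcription factor, was at 84.3, 79.2 and 90.0 CPM in KO, against 18.6, 21 and 21.8 CPM in WT (log2 fold change 1.99 ± 0.078, adjusted p = 6.19e-16), Cdh1 (E-cadherin) gained 3.23, and Cldn4, Cldn1, Ocln and Esrp1 had no count. Fibroblast markers rose in 5 of 10 cases and fell in 3, with a summed level of 5570.0 to 5961 CPM in KO, against 9461 to 11312 CPM in WT. That lower sum came from Col1a1, at 2634 to 2879 CPM in KO, against 7251 to 9104 CPM in WT. Vim, S100a4 and Pdgfrb were higher in KO, by 0.28, 0.88 and 1.54 on the log2 scale. Smooth muscle markers rose in 3 of 8 cases and fell in 2, with Acta2 at 12.6, 12 and 11.4 CPM in KO, against 181, 171 and 125 CPM in WT (log2 fold change -3.79 ± 0.25, adjusted p = 3.07e-10), and Des, the other way, at 142, 140.1 and 132 CPM in KO, against 38.6, 40.9 and 34.9 CPM in WT. Of 8 leukocyte markers tested 3 rose and 1 fell: the integrin subunit Itgb2 was at 87.7, 89.3 and 82.7 CPM in KO, against 1.35, 1.89 and 1.04 CPM in WT (log2 fold change 5.84 ± 0.24, adjusted p = 3.79e-14), the tetraspanin Cd37 gained 6.59, and Cd48 had 1 count in KO, against 40.5, 39 and 54 CPM in WT, while Cd53, Itgal and Tyrobp had no count. Of the lymphatic markers, Pdpn rose (log2 fold change 1.04 ± 0.069, adjusted p = 5.53e-12) and Flt4 did not pass (adjusted p = 0.655). The part of these markers in the results above was not tested.

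Few genes passed the test of an oxygen difference. On simulated counts this test recovered 17 of 50 genes changed 1.5-fold and 33 of 50 changed 2-fold, so smaller differences can be missed. KO over WT in fructose differed between normoxia and hypoxia for 312 genes (2.11%), 158 (1.07%) more positive and 154 (1.04%) more negative in normoxia. Vwa1, a matrix protein, was at 25.8, 23.3 and 29.2 CPM in KO, against 7.37, 10.2 and 6.15 CPM in WT in normoxia, and at 124 ± 10.2 CPM in KO, against 114 ± 19.4 CPM in WT in hypoxia (1.66 ± 0.18, adjusted p = 2.05e-05). The carbonic anhydrase Car12 and Acap1, a regulator of endosomal sorting, showed the same order, with oxygen differences of 1.94 ± 0.32, adjusted p = 0.00375, and 3.14 ± 0.34, adjusted p = 1.43e-05. On the negative side, Rab3b, of the exocytosis machinery, was at 2.55, 2.74 and 3.85 CPM in KO, against 28.2, 29.5 and 25.9 CPM in WT in normoxia, and at 4.03 ± 1.21 CPM in KO, against 11.3 ± 0.101 CPM in WT in hypoxia (-1.63 ± 0.33, adjusted p = 0.00923). With upper-quartile scaling 37.0% of the oxygen differences that passed were positive, against 50.6% with the scaling used here. The count of positive ones was 101, 81, 90, 92, 101 and 90 without KO normoxia library 1 or 2, WT normoxia library 3, KO hypoxia library 1 or 3 or WT hypoxia library 2, and that of negative ones 96, 83, 91, 97, 82 and 102 without KO normoxia library 1 or 2, WT normoxia library 3, KO hypoxia library 1 or WT hypoxia library 2 or 3. The normoxia and hypoxia comparisons share no library.

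The direction of the changes also varied with chromosome, which is given as a description without a test. On chromosome 12, 334 of 516 genes tested fell (64.73%) and 21 rose (4.07%), with a median log2 fold change of -0.57. Chromosomes 13 and 3 had medians of -0.41 and -0.35. On chromosome 11, 208 of 374 rose (55.61%) and 31 fell (8.289%), with a median of 0.43. In glucose the medians of chromosomes 12 and 11 were -0.52 and 0.46, and the median sugar differences by chromosome lay between -0.07 and 0.08. Among the genes named above that lie on chromosome 12, Mcoln1, Oasl, Insr, Eln, Rpl6 and Rplp0 were lower in KO, Flt1 was higher, and Pole and Rfc5 did not pass. Mcm4, on chromosome 11, was at 295, 299.6 and 286 CPM in KO, against 90.0, 96.2 and 72.2 CPM in WT (log2 fold change 1.71 ± 0.12, adjusted p = 2.57e-11).

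**Figure D5:**
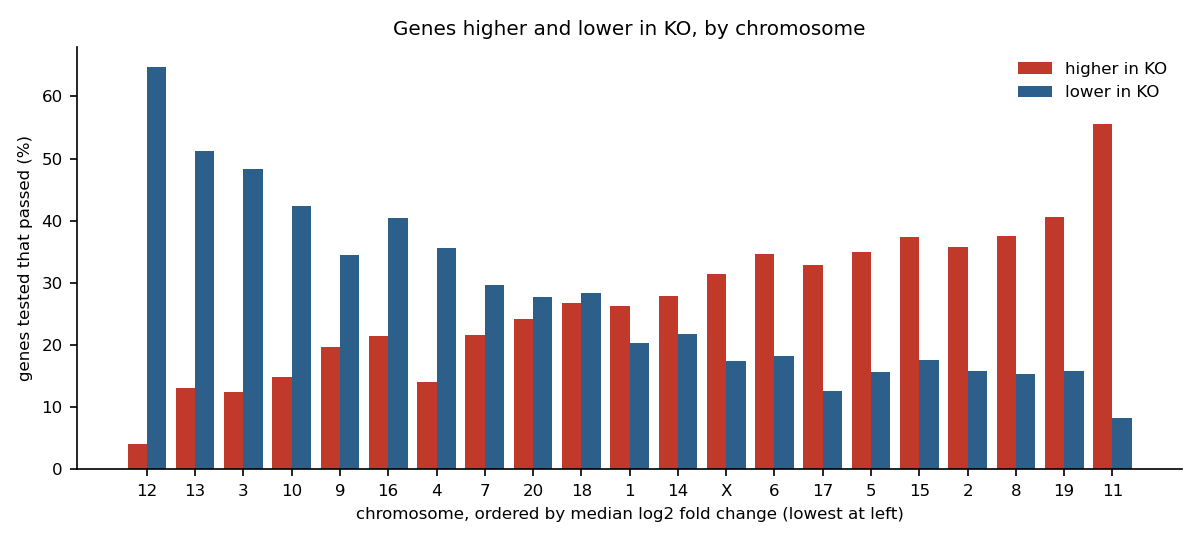
Percentage of tested genes that passed as higher (red) and lower (blue) in KO, normoxia with fructose, by chromosome, ordered from the lowest median log2 fold change at the left. Chromosome 12 has 64.73% lower and chromosome 11 has 55.61% higher.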

How the data were processed

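RNA-seq of 24 libraries in 8 groups of 3 was analysed, and the comparison uses 6 of them. The deposited values are raw gene counts for 34523 genes, which the authors made by aligning reads with HISAT2 to the rat build Rnor_6.0, per the submitters' processing notes, which also name DESeq2. The sources used here do not give versions, the counting program or strand use, so overlapping and near-identical genes may share reads. Rows without a gene symbol stayed in the fit.

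All 24 libraries were fitted together in R 4.3.3 with edgeR 4.0.16 (TMM scaling, filterByExpr with a minimum count of 10 and a minimum total of 15, 1 coefficient a group, quasi-likelihood test, 16 residual degrees of freedom, two-sided). This left 14770 genes, over which p-values were adjusted by Benjamini-Hochberg with a threshold of 0.05. The sugar and oxygen differences are interaction contrasts of the same fit. TMM factors of the 6 libraries lay between 0.969 and 1.031. Replicates correlated at 0.9804 to 0.9859 on the log2 CPM scale, and no pair agreed within sampling noise. On simulated counts for the KO against WT contrast over 14423 genes, 28, 39, 48 and 49 of 50 genes changed 1.5, 2, 4 and 8-fold were recovered, with 10 false calls among 174. For the sugar difference 19, 31, 46 and 49 were recovered, with 7 false calls among 152. For the oxygen difference 17, 33, 46 and 48 were recovered, with 9 among 153. Each fold was given to 50 of the 14423 genes. In the data 53.6% passed for KO against WT and 19.1% for the sugar difference, and recovery at such shares was not tested.

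The members of the comparison and the gene lists (1165 symbols in 50 lists, 1131 matched in the table) were chosen with earlier results of these data known. Named genes follow a rule: the 12 largest fold changes each way above a mean log2 CPM of 1 with libraries that do not overlap, the 8 largest gains and losses in CPM, the 8 largest sugar and oxygen differences each way, and the leading members of each list. Which of these are printed, and the further list members, were chosen after their values were seen. Alternatives were other scalings, no filter, DESeq2 1.42.0, fewer libraries, the replicate block and each library left out. Figures were drawn with matplotlib 3.10.9, and promoters were read from a RefSeq table of GRCr8. A few list members are counted but not reported here by name.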

Additional observations from a re-analysis of the deposited data

Results flagged for a closer look

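The KO against WT difference was not the same in both sugars for part of the transcriptome. By the interaction test of edgeR's quasi-likelihood fit over all genes tested, in normoxia 1351 genes had a more positive and 1476 a more negative KO-over-WT value in fructose than in glucose. Between normoxia and hypoxia with fructose, 158 genes had a more positive and 154 a more negative KO-over-WT value in normoxia. No explanation of these differences was tested.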

How the results depend on the processing

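In normoxia with fructose, the counts of 3789 genes higher and 4130 lower in KO kept within 1.5 times under every alternative tried: 3853 and 4084 with DESeq2's size factors, 3957 and 3969 with upper-quartile scaling, 3612 and 3996 without a filter, 3910 and 4156 with DESeq2, 3690 and 3770 with the 6 libraries alone, and 3419 to 3555 and 3700 to 3897 with 1 library left out. The sugar differences did too, with 1106 to 1410 more positive and 1267 to 1497 more negative when 1 library was left out. The oxygen differences, 158 and 154, were less stable. They became 281 and 320 with DESeq2, the positive ones 96 with the 12 fructose libraries alone, and 81 to 185 and 82 to 164 with 1 library left out. The cause was not tested.

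Same replicate numbers did not pair KO with WT, since their deviations from the group means correlated at -0.0339, 0.0296 and 0.0992 and not every library correlated best with its own number. Between fructose and glucose every library correlated best with its own number, at 0.13, 0.12 and 0.218 in WT and 0.0563, 0.0697 and 0.105 in KO, a hint from the data and not from the design. With the replicate block the calls were 4124 higher and 4451 lower, the sugar differences 1829 and 1977, and the oxygen differences 544 and 428. The block moved small list counts as well: positive sugar differences to 2 in the serine list and 1 in the lysosome list, negative ones to 2 in the G1 list, and endothelial markers lower to 1. With it Mcm6, Rfc5 and Myc passed as higher in KO (edgeR's adjusted p = 0.00207, 0.00502 and 0.0185), which they did not without it.

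Among the other list counts, members higher on the ATF4 list became 1 with DESeq2 and with the 6 libraries, positive sugar differences of ER chaperones 0 without a filter, negative ones of G1 regulators 2 with DESeq2, ribosomal proteins higher 0 with the 6 libraries, and epithelial markers lower 1 with upper-quartile scaling, without a filter and with the 6 libraries. With 1 library left out, members higher ranged from 2 to 4 for glycogen, 2 to 5 for NRF2 targets, 3 to 5 for lysosome and for HIF targets, 0 to 2 for ribosomal proteins and for clock genes, and 0 to 1 for MHC class I, and epithelial markers lower from 1 to 2. Positive sugar differences ranged from 0 to 1 for the ATF4 list, ER chaperones and the lysosome list and 1 to 2 for the serine list, negative ones from 5 to 11 for the serine list and 1 to 2 for G1 regulators, and negative oxygen differences of sterol genes from 7 to 14. Of 4775 values of single named genes under an alternative, 185 no longer passed, 9 newly passed and none reversed. Depth limits genes near 0, where the floor of 3 counts sets the bound.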

Other observations

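Enzymes of serine, one-carbon and amino acid synthesis moved both ways in KO against WT in normoxia with fructose: 8 of 23 rose and 6 fell, against 25.7% and 28.0% of all genes. Their median log2 fold change was 0.12, against 0.77 in glucose. The sugar difference was negative and passed in 9 and positive in 1, against 9.99% and 9.15% of all genes. The 9 became 5 without KO library 3 or WT library 2. Psat1, the transaminase of serine synthesis, was at 636, 657 and 645 CPM in KO, against 324, 294 and 317 CPM in WT (log2 fold change 0.99 ± 0.076, adjusted p = 1e-10), and was the member with a positive sugar difference (0.44 ± 0.11, adjusted p = 0.00436). Pycr1, which makes proline, was at 21.4, 25.7 and 19.6 CPM in KO, against 60.7, 58.7 and 33.8 CPM in WT (log2 fold change -1.27 ± 0.22, adjusted p = 4.67e-05), and neither gene's libraries overlapped between genotypes. Cth, which makes cysteine, was at 12.7, 16 and 12.1 CPM in KO and 16.1, 21.3 and 8.77 CPM in WT and did not pass (adjusted p = 0.451), but its sugar difference did (-2.54 ± 0.39, adjusted p = 5.63e-05), with 13 ± 2.19 CPM in KO and 2.68 ± 0.607 CPM in WT in glucose (SD, n = 3 each). The branched-chain transaminases Bcat1 and Bcat2 had sugar differences of -1.12 and -1.05.

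Among p53 targets and apoptosis genes 12 of 23 fell and 6 rose (median -0.31, against 0.00 in glucose). The counts of this and the next lists stand against 28.0% lower and 25.7% higher of all genes. Fas, a death receptor, was at 4.25, 3.86 and 3.9 CPM in KO, against 34.5, 38.2 and 36.4 CPM in WT (log2 fold change -3.24 ± 0.17, adjusted p = 1.3e-13), with no overlap. Gadd45a, a DNA damage and stress gene, fell by 1.29 and its relative Gadd45b rose by 1.58 on the log2 scale. Of 15 cytosolic heat shock chaperones 7 fell and 3 rose: Hspb8, a small heat shock protein, fell (log2 fold change -2.30 ± 0.10, adjusted p = 3.58e-15) and Hspa4l rose (log2 fold change 2.22 ± 0.13, adjusted p = 1.18e-12). Of 15 targets of the hypoxia-inducible factors 5 rose, or 3 without WT library 1, and 6 fell. Those that rose include Car9, a carbonic anhydrase, at 370.3, 320.5 and 412 CPM in KO, against 169, 151 and 223 CPM in WT (log2 fold change 0.97 ± 0.11, adjusted p = 7.94e-08). Those that fell include Vegfa, Ndrg1 and P4ha2, with log2 fold changes of -1.0, -0.47 and -10.6. In the list of axon guidance ligands and receptors 13 of 27 fell and 4 rose, with the semaphorin receptor Plxnd1 at 0.425, 0.124 and 0.312 CPM in KO, against 4.95, 5.2 and 4.75 CPM in WT (log2 fold change -4.13 ± 0.53, adjusted p = 4.42e-07), and the ligand Sema6a lower by 2.77.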
